A study of Homo sapiens with 9 samples.

Results

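The HOX cluster genes encode homeodomain transcription factors and lie in 4 clusters, HOXA, HOXB, HOXC and HOXD. Their transcripts were examined in A498 cells, an established human line of clear cell renal cell carcinoma (ccRCC). Members were found by name, as every gene in the count table whose symbol was HOX, a cluster letter from A to D and a number. This gave 39 of 27673 genes, with 11 in HOXA, 10 in HOXB, 9 in HOXC and 9 in HOXD. RNA was sequenced from 3 groups of A498 cells infected with lentiviral pLKO.1 vectors, with 3 libraries per group that the labels call biological replicates. The shControl cells carried a control short hairpin RNA and are labelled WT, the shBMAL1 cells carried a hairpin that depletes BMAL1, and the shARNT cells carried a hairpin that depletes ARNT. All groups were selected in puromycin at 2.5 µg/mL and kept at 1.25 µg/mL in medium with serum. BMAL1 and ARNT are related bHLH-PAS proteins that pair with other factors, BMAL1 with CLOCK in the circadian clock and ARNT with the hypoxia-inducible factors, and the study asked what each contributes to transcription in ccRCC cells. The labels name 1 hairpin group for each target, in 1 cell line. In bulk RNA, fewer cells with a transcript and less transcript per cell cannot be told apart.

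HOX proteins give cells their position along the body axis in the embryo, and adult cells, including those of the kidney, retain part of the HOX expression of their origin. Within a cluster the genes stand in the order of their number, and the numbers also name the paralog groups, that is, the genes at matching places in different clusters. Low numbers are used in the hindbrain and pharynx and high numbers in the trunk, limbs and urogenital tract. HOX proteins bind DNA together with the TALE homeodomain cofactors PBX and MEIS. Polycomb complexes keep HOX clusters repressed, Trithorax proteins of the KMT2 family keep them active, and retinoic acid switches on the low-numbered genes.

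Library totals were between 35269851 and 36099075 counts, and levels are given as CPM, counts per 1000000 of the library size after scaling by trimmed means of M values (TMM). TMM factors were between 0.932 and 1.11, highest in shARNT. The targeted genes followed the labels. ARNT measured 50.5 ± 2.24 CPM (SD, n = 3) in shControl and 9.47 ± 0.432 in shARNT, and ARNTL, the older symbol of BMAL1, measured 16.3 ± 0.395 CPM in shControl and 5.02 ± 0.789 in shBMAL1. The other gene of the pair also changed, since ARNT was 32.3 ± 1.52 CPM in shBMAL1 and ARNTL was 23.8 ± 1.31 in shARNT. Of 11 markers of a renal carcinoma line, 10 passed the filter on low counts, and the renal factor PAX8 and the renal cadherin CDH6 stood at 35.98 ± 1.92 and 199 ± 3.03 CPM in shControl. CDH1, the epithelial cadherin, had at most 0.228 CPM in any library.

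Of the 39 genes, 35 passed the filter on low counts and were tested, and these are called expressed. HOXB1, a hindbrain gene, and HOXC12 had no read in any of the 9 libraries, which allows up to 3 counts, or 0.0756 to 0.0911 CPM, in a library. HOXB13, known for its role in prostate, had at most 3 counts, with 0, 0 and 1 in shControl, 1, 0 and 3 in shBMAL1 and 1, 0 and 0 in shARNT. These 3 genes were taken as silent in A498 cells at this depth, in control and depleted cells alike. HOXD12 came next, with 8, 2 and 10 counts in shControl, 0, 4 and 6 in shBMAL1 and 4, 3 and 0 in shARNT. It was too low to test. The lowest of the tested genes, HOXC11, had 4, 0 and 14 counts in shControl, 2, 14 and 8 in shBMAL1 and 9, 15 and 24 in shARNT. No gene of paralog group 12 was tested, and in every other group at least 2 members were.

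Levels of different genes were compared per length, as CPM per kilobase of the main transcript. HOXA10, a posterior gene with roles in the uterus and the lumbar axis, was the highest HOX gene in shControl at 36.2 ± 1.42 CPM per kb (SD, n = 3). HOXA3, a gene of the pharyngeal arches, followed at 13.5 ± 0.603, and its libraries did not overlap those of HOXA10 or of the gene below it. The next 4 genes were HOXA11 at 10.2 ± 0.631, HOXB2 at 9.90 ± 0.958, HOXB7 at 9.85 ± 0.251 and HOXA5 at 9.61 ± 0.173 CPM per kb. Each of these overlapped the gene next to it, so their order was within the spread of the libraries. HOXD11 and HOXD10 came next, at 8.44 ± 0.523 and 7.28 ± 0.918 CPM per kb. At the low end stood HOXA13 at 0.231 ± 0.0257 and HOXC11 at 0.0556 ± 0.0670 CPM per kb. Among the 35 genes in order, 26 of 34 pairs of neighbours overlapped in shControl, 23 in shBMAL1 and 19 in shARNT. HOXA10 was first in every group. The second place was held by HOXA3 in shControl, by HOXA3 in shBMAL1, where it overlapped HOXB2, and by HOXA9 in shARNT, at 26.6 ± 0.288 CPM per kb against 6.26 ± 0.701 in shControl. The values of HOXA10, HOXA5 and HOXA9 include reads that were divided between overlapping rows, as described below.

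**Figure D1:**
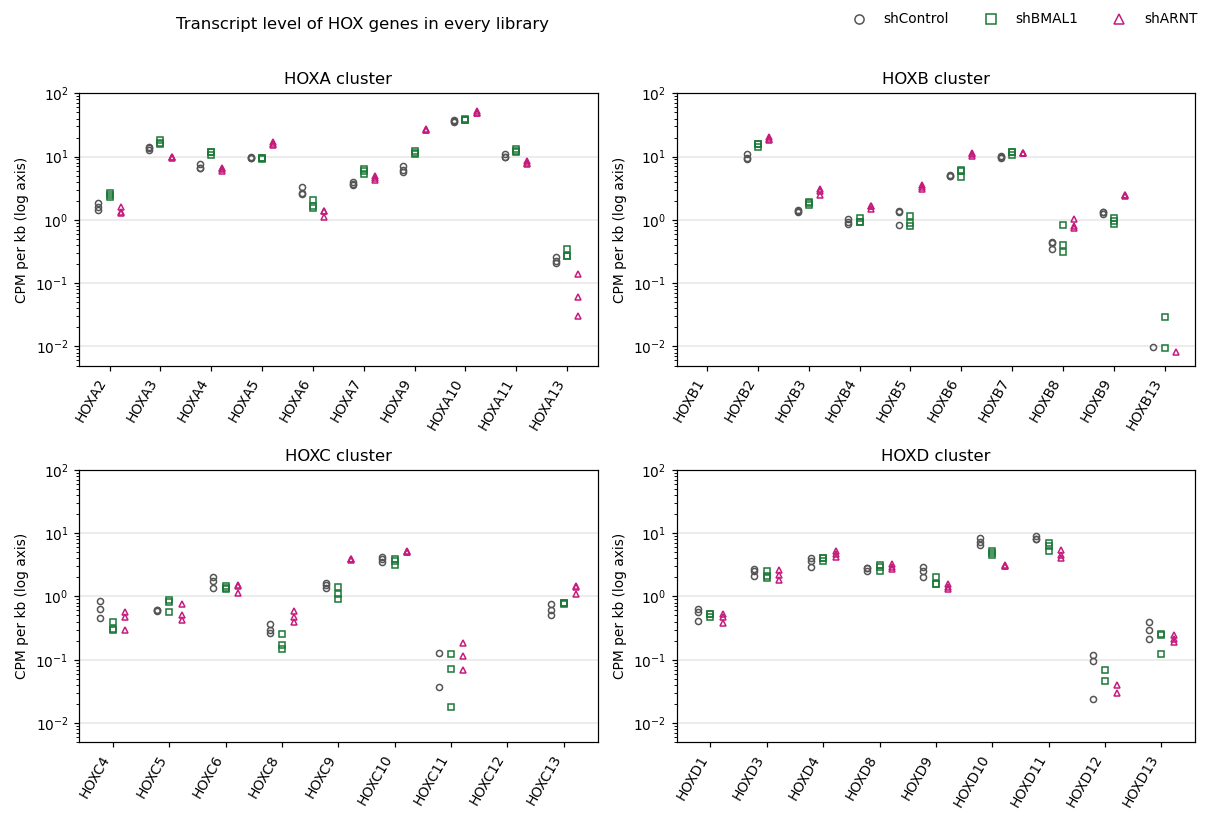
Level of HOX genes in CPM per kilobase (log axis) in the 9 libraries, with 1 point per library, circles for shControl, squares for shBMAL1 and triangles for shARNT; libraries without reads are not drawn. HOXA10 lies above every other gene in all 3 groups, at 36.2 CPM per kb on average in shControl, and HOXB1 and HOXC12 have no point.

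The HOXA cluster held most of the HOX transcript. Summed per length, HOXA genes made up 57.8% ± 1.43 (SD, n = 3) of all HOX level in shControl, 62.0% ± 1.01 in shBMAL1 and 59.2% ± 1.13 in shARNT. HOXB genes held 18.9% ± 0.613, 20.9% ± 0.370 and 25.05% ± 0.824 in the same order. HOXC genes held 5.86% ± 0.501, 4.58% ± 0.0829 and 6.31% ± 0.247. The share of HOXD genes was 17.5% ± 1.07 in shControl, 12.5% ± 0.585 in shBMAL1 and 9.39% ± 0.204 in shARNT, and no library of a group overlapped another group. The sums themselves, in CPM without regard to length, went from 216 ± 7.45 in shControl to 261 ± 8.42 in shBMAL1 and 285 ± 3.82 in shARNT for HOXA. For HOXB they were 51.3 ± 1.02, 64.0 ± 0.635 and 93.1 ± 3.66 CPM. For HOXC they were 17.1 ± 1.55, 15.3 ± 0.326 and 24.4 ± 1.15 CPM, and for HOXD 51.1 ± 3.22, 41.1 ± 1.29 and 36.1 ± 1.16 CPM. A sum is set mainly by its most abundant genes, which in HOXA were HOXA10 and HOXA3 in shControl and HOXA10 and HOXA9 in shARNT, and it was given no test.

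**Figure D2:**
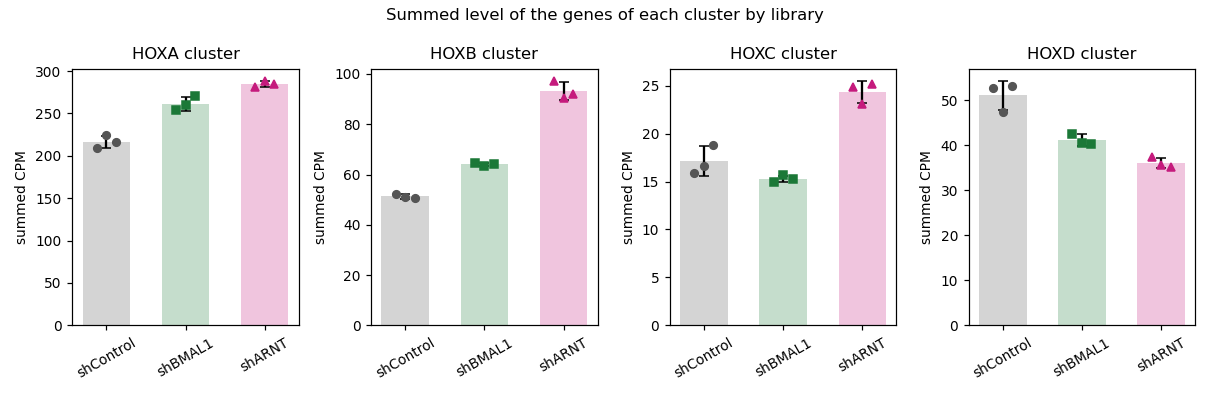
Summed level of the genes of each cluster in CPM, with 1 point per library, bars for the mean of 3 libraries and error bars for the SD; each panel has its own axis from 0. The HOXB sum goes from 51.3 CPM in shControl to 93.1 in shARNT, and the HOXD sum from 51.1 to 36.1 CPM.

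Start regions were searched for the hexamer CACGTG, the canonical E-box that CLOCK and BMAL1 bind, because BMAL1 is a depleted protein here. RefSeq windows (GRCh38.p14, 250 bases before to 50 after a start) were at hand for 20 of the 39 genes, 27 windows in all, of which HOXC4 and HOXC5 share the same one. Among those not searched were HOXA5, HOXB2 to HOXB9, HOXB13, HOXC6, HOXC8 to HOXC13 and HOXD9. The hexamer reads the same on both strands. It stood in the windows of 9 genes, HOXA3, HOXA4, HOXA7, HOXA9, HOXD1, HOXD3, HOXD10, HOXD11 and HOXD13, in 9 of the 27 HOX windows against 7.26% of the 35116 windows of all genes. Median GC content was 58% in HOX windows and 58.7% in all windows. The shorter hypoxia-type cores, on either strand, were ACGTG in 15 of the 27 HOX windows against 21.4% of all windows, and GCGTG in 12 of the 27 against 36.5%. Every CACGTG contains ACGTG, so those counts are not separate. A match describes letters only and no binding was measured. The sequence around the hexamer is printed for the 6 of these genes that were called in at least 1 depletion, 5′ to 3′ on the strand of the gene with the hexamer in capitals.
HOXA3: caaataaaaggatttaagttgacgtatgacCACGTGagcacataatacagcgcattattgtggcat
HOXA4: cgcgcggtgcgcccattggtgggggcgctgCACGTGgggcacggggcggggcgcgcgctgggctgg
HOXA7: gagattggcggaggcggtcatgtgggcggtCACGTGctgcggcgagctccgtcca
HOXA9: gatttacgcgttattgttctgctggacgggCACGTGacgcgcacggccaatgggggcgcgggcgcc
HOXD10: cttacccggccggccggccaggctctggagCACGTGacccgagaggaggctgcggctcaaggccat
HOXD11: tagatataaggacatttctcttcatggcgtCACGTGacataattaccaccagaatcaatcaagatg
The HOXA sequences are from the minus strand of chromosome 7 (GRCh38.p14), chr7:27118373-27118438, chr7:27130922-27130987, chr7:27156656-27156710 and chr7:27165573-27165638, and the HOXD sequences from the plus strand, chr2:176116642-176116707 and chr2:176107160-176107225. Counted from the start, the first base of the hexamer lies at -51 in HOXA3, -200 in HOXA4, -5 in HOXA7, -71 in HOXA9, -106 in HOXD10 and -90 in HOXD11. These 6 genes did not share a direction in the depletions: in shBMAL1 the HOXA genes among them were higher and the HOXD genes lower than in shControl. HOXD1, HOXD3 and HOXD13 hold the hexamer too and were called in neither depletion. Of all 35 tested HOX genes, 7 were called in neither. The values are given below with each cluster.

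Differences were tested with edgeR across all 15551 genes that passed the filter, and a gene was called where its p, adjusted by Benjamini-Hochberg, was under 0.1. With ARNT depleted, 25 of the 35 HOX genes were called, 18 higher and 7 lower. Of all genes tested, 81.8% were called in this comparison, 40.5% higher and 41.3% lower, so a called HOX gene was not unusual, and the higher calls were the more frequent ones among HOX genes. The median log2 fold change was 0.32 over the HOX genes and -0.0072 over all genes. With BMAL1 depleted, 18 of the 35 HOX genes were called, 10 higher and 8 lower, against 63.3% of all genes called, 31.9% higher and 31.5% lower. The median was 0.067 over the HOX genes and -0.0015 over all genes. Libraries of the compared groups did not overlap for 25 HOX genes with ARNT depleted, where 79.8% of all genes did not overlap. The same was true of 18 HOX genes with BMAL1 depleted, against 62.2% of all genes. Scaling by library size alone shifted the median of all genes by 0.24 on the log2 scale in shARNT and by 0.047 in shBMAL1. Under that scaling the HOX calls in shBMAL1 were 12 higher and 6 lower, those in shARNT 20 higher and 6 lower, no called HOX gene turned direction, and the calls over all genes in shARNT were 7827 higher and 5111 lower instead of 6305 and 6417. The 3 shControl libraries serve both comparisons, so the values of the depletions are set side by side below and their likeness was not tested.

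**Figure D3:**
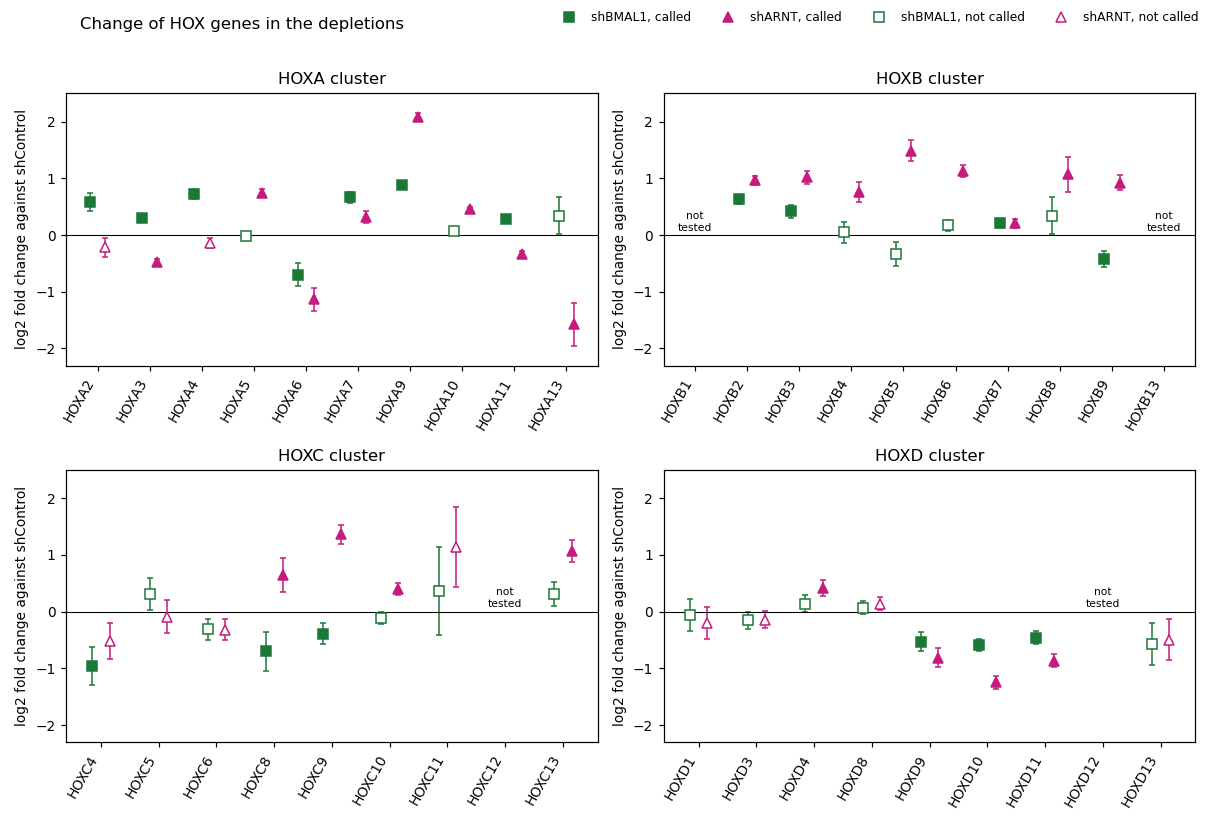
Log2 fold change of tested HOX genes against shControl with its standard error, in genomic order by cluster, with squares for shBMAL1, triangles for shARNT and filled symbols for called genes. All 8 tested HOXB genes lie above 0 in shARNT, from 0.21 for HOXB7 to 1.49 for HOXB5, and HOXD9, HOXD10 and HOXD11 lie below 0 in both depletions.

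HOXA was the cluster with most calls in shBMAL1 and it was mixed in shARNT. Of its 11 genes, all expressed, 7 were higher and 1 lower with BMAL1 depleted, and 5 were higher and 4 lower with ARNT depleted. HOXA9, a gene of blood progenitors and leukaemia (chromosome 7, 27202057 to 27214799, minus strand, GRCh37), measured 11.7, 12.5 and 14.5 CPM in the shControl libraries, 22.6, 23.8 and 25.02 in shBMAL1 and 55.5, 54.4 and 55.1 in shARNT. The 3 groups were fully apart, with shARNT highest. Its log2 fold change was 0.88 ± 0.075 (SE) with BMAL1 depleted (adjusted p = 3.91e-09) and 2.09 ± 0.072 with ARNT depleted (adjusted p = 4.41e-16), the latter being the largest rise of any single HOX row in shARNT. Its counts were fractional in part, and summed with HOXA10, HOXA-AS4 and the readthrough row the rises were 0.37 and 0.99, the latter below that of HOXB5. HOXA10, next to it, measured 88.9, 95.99 and 91.4 CPM in shControl, 94.9, 98.03 and 96.2 in shBMAL1 and 122, 132 and 124 in shARNT. It rose by 0.45 ± 0.045 in shARNT (adjusted p = 1.52e-08), while its change in shBMAL1 was 0.07 ± 0.046 (adjusted p = 0.233) and those libraries overlapped the control. With scaling by library size alone, the shBMAL1 change was 0.11 and was called (adjusted p = 0.0393).

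Towards the low-numbered end of the cluster, HOXA2, which patterns the second pharyngeal arch, had 2.43, 3.16 and 2.69 CPM in shControl, 3.89, 4.15 and 4.41 in shBMAL1 and 2.17, 2.25 and 2.70 in shARNT. It rose by 0.59 ± 0.16 in shBMAL1 and had a change of -0.22 ± 0.17 in shARNT, which was not called (adjusted p = 0.237). HOXA4 showed the same arrangement, with a rise of 0.73 ± 0.087 in shBMAL1 (adjusted p = 5.02e-07) from 12.8, 11.1 and 11.2 CPM in shControl to 18.1, 19.9 and 20.1, and 9.90, 10.7 and 11.2 CPM in shARNT. HOXA7 rose in both, by 0.67 ± 0.10 in shBMAL1 and 0.32 ± 0.10 in shARNT.

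Other HOXA genes went in opposite directions in the depletions or fell. HOXA3 measured 38.8, 42.5 and 41.02 CPM in shControl, 47.1, 49.1 and 54.7 in shBMAL1 and 29.9, 28.2 and 29.8 in shARNT. Every shBMAL1 library was above the control and every shARNT library below it, with changes of 0.30 ± 0.061 (adjusted p = 0.000287) and -0.48 ± 0.063 (adjusted p = 7.78e-07). HOXA11, which acts with its paralogs in the outgrowth of the ureteric bud in kidney development, had 26.04, 29.1 and 26.3 CPM in shControl, 32.5, 31.4 and 35.4 in shBMAL1 and 20.6, 22.4 and 21.2 in shARNT. Its changes were 0.29 ± 0.067 in shBMAL1 and -0.34 ± 0.068 in shARNT, both called, and the latter was -0.10 and not called when libraries were scaled by size alone (adjusted p = 0.161). HOXA13, a gene of the digits and the urogenital tract and the last of the cluster (chromosome 7, 27233122 to 27239710, minus strand, GRCh37), had 1.05, 1.12 and 1.30 CPM in shControl, 1.35, 1.71 and 1.35 in shBMAL1 and 0.707, 0.152 and 0.302 in shARNT. The shARNT libraries were the lowest and the most spread, from 6 to 28 counts. HOXA13 had a log2 fold change of -1.57 ± 0.38 there (adjusted p = 0.000783), the largest fall of any HOX gene, and the change of 0.34 ± 0.32 in shBMAL1 was not called (adjusted p = 0.382). HOXA5, a gene of lung and airway development, rose by 0.74 ± 0.067 in shARNT, and HOXA6 had changes of -1.13 ± 0.20 in shARNT and -0.70 ± 0.20 in shBMAL1, but the reads of both were divided with other rows, as described below.

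HOXB was the cluster in which all tested genes rose with ARNT depleted. The 8 expressed genes, HOXB2 to HOXB9, were called higher in shARNT, with a median log2 fold change of 0.99, whereas in shBMAL1 3 were higher, 1 was lower and 4 were not called. HOXB5, a gene of gut and neural crest development (chromosome 17, 46668619 to 46671141, minus strand, GRCh37), measured 1.56, 2.46 and 2.60 CPM in shControl, 1.67, 2.12 and 1.47 in shBMAL1 and 6.69, 6.19 and 5.74 in shARNT. All shARNT libraries were at least 5.74 CPM and the other groups overlapped below. It rose by 1.49 ± 0.18 with ARNT depleted (adjusted p = 2.28e-07), while its change of -0.33 ± 0.21 in shBMAL1 was not called (adjusted p = 0.177). Without shControl replicate 1, whose value was the lowest of its group, the shBMAL1 change was -0.53 and was called (adjusted p = 0.0263), and it was also called without shBMAL1 replicate 2 at -0.49 (adjusted p = 0.0741). HOXB6 had 8.17, 8.63 and 8.14 CPM in shControl, 10.1, 10.1 and 7.85 in shBMAL1 and 19.3, 18.2 and 17.2 in shARNT. It rose by 1.13 ± 0.099 in shARNT (adjusted p = 1.80e-09), and its change of 0.17 ± 0.10 in shBMAL1 was called only without shBMAL1 replicate 3 (0.28, adjusted p = 0.0216) or with scaling by library size alone.

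HOXB2, a hindbrain gene that led the cluster per length together with HOXB7, had 18.5, 15.6 and 15.9 CPM in shControl, 26.8, 23.9 and 26.6 in shBMAL1 and 34.7, 30.7 and 32.3 in shARNT. The groups formed 3 steps without overlap, with rises of 0.63 ± 0.078 in shBMAL1 (adjusted p = 9.30e-07) and 0.97 ± 0.077 in shARNT (adjusted p = 4.02e-10). HOXB3 also rose in both depletions, from 4.56 ± 0.206 CPM in shControl to 6.08 ± 0.317 in shBMAL1 and 9.23 ± 0.907 in shARNT. HOXB7, whose regulatory sequence is widely used to mark the ureteric bud, moved least of the HOXB genes in shARNT, with 13.4 ± 0.342 CPM in shControl and 15.5 ± 0.741 and 15.5 ± 0.218 in shBMAL1 and shARNT. Both changes were 0.21 and called, with adjusted p = 0.0257 in shBMAL1 and 0.0169 in shARNT. HOXB9 measured 3.39, 3.22 and 3.39 CPM in shControl, 2.49, 2.24 and 2.73 in shBMAL1 and 6.41, 6.45 and 6.15 in shARNT. It was the HOXB gene that fell in shBMAL1, with a change of -0.42 ± 0.14 (adjusted p = 0.0165), and it rose by 0.93 ± 0.13 in shARNT. HOXB4, which supports blood stem cell expansion, and HOXB8 rose in shARNT by 0.76 ± 0.17 and 1.07 ± 0.30 and were not called in shBMAL1. HOXB8 was uneven among the shBMAL1 libraries, at 0.673, 0.871 and 1.82 CPM.

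HOXC genes were low in A498 cells, and their calls were few and in opposite directions. Of 8 expressed genes, 4 were higher and 4 not called with ARNT depleted, whereas 3 were lower and 5 not called with BMAL1 depleted. HOXC9, a gene of thoracic motor neurons (chromosome 12, 54388679 to 54397121, plus strand, GRCh37), had 2.22, 2.04 and 2.39 CPM in shControl, 2.11, 1.36 and 1.62 in shBMAL1 and 5.73, 5.79 and 5.59 in shARNT. The shARNT libraries stood apart, and shBMAL1 overlapped the control. Its rise in shARNT was 1.36 ± 0.16 (adjusted p = 1.77e-07). HOXC10, the most abundant HOXC gene, rose by 0.40 ± 0.11 in shARNT, from 7.62 ± 0.618 to 10.05 ± 0.313 CPM (adjusted p = 0.00190). HOXC13, a hair follicle gene, rose by 1.07 ± 0.20, from 1.47 ± 0.283 to 3.10 ± 0.473 CPM (adjusted p = 5.15e-05). Its change of 0.31 ± 0.21 in shBMAL1 was not called (adjusted p = 0.220) but was called at 0.46 without shControl replicate 1 (adjusted p = 0.0972).

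The 3 lower calls of HOXC genes in shBMAL1 rested on few counts. HOXC4 had 0.781, 1.09 and 1.42 CPM in shControl and 0.497, 0.668 and 0.529 in shBMAL1, with no overlap and a change of -0.96 ± 0.34 (adjusted p = 0.0202). Without shControl replicate 3 the change was -0.73 and was not called (adjusted p = 0.115). HOXC8, a gene of the brachial spinal cord, had 24, 21 and 29 counts in shControl, 14, 21 and 12 in shBMAL1 and 38, 45 and 56 in shARNT. Its changes of -0.70 ± 0.34 in shBMAL1 (adjusted p = 0.0847) and 0.65 ± 0.30 in shARNT (adjusted p = 0.0531) were both near the threshold. The shBMAL1 call of HOXC8 was lost without shControl replicate 1 (-0.72, adjusted p = 0.118) or 3 (-0.57, 0.230), shBMAL1 replicate 1 (-0.62, 0.182) or 3 (-0.54, 0.231), or shARNT replicate 2 (-0.70, 0.102). Its shARNT call was lost without shControl replicate 1 (0.62, adjusted p = 0.107) or 2 (0.54, 0.151) or shARNT replicate 3 (0.49, 0.201). The fall of HOXC9 in shBMAL1, -0.39 ± 0.18 (adjusted p = 0.0794), was lost without shControl replicate 1 (-0.38, adjusted p = 0.121) or 3 (-0.33, 0.192) and without shBMAL1 replicate 2 (-0.25, 0.279) or 3 (-0.35, 0.160). Both shBMAL1 calls were also lost in DESeq2 (adjusted p = 0.160 for HOXC8 and 0.135 for HOXC9), with scaling by library size alone (0.107 and 0.122) and without the filter on low counts (0.113 and 0.102), that of HOXC9 also with only the 6 libraries compared (0.130), and the shARNT call of HOXC8 in DESeq2 (0.127). HOXC5 and HOXC6 were not called in either depletion, with changes from -0.32 to 0.31. HOXC6 was called in shARNT without shControl replicate 1 (-0.46) or shARNT replicate 3 (-0.40) and in shBMAL1 without shControl replicate 1 (-0.45), and HOXC4 in shARNT without shControl replicate 1 (-0.72) or shARNT replicate 1 (-0.74). HOXC11 had a change of 1.14 ± 0.70 in shARNT (adjusted p = 0.144), which was called at 2.67 without shControl replicate 3 and at 1.42 without shARNT replicate 1. It was also called at 1.37 with scaling by library size alone (adjusted p = 0.0771).

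HOXD was the cluster whose calls were mostly lower in both depletions, and they lay next to each other. HOXD9, HOXD10 and HOXD11, on chromosome 2 between 176968944 and 176989665 (GRCh37), were lower in shARNT and in shBMAL1, and the only higher call of the 8 expressed genes was HOXD4 in shARNT. HOXD10, a gene of the lumbar axis and the hindlimb, had 12.8, 11.5 and 14.7 CPM in shControl, 9.18, 8.68 and 7.94 in shBMAL1 and 5.40, 5.31 and 5.67 in shARNT. The groups descended in that order without overlap. It changed by -1.25 ± 0.11 with ARNT depleted (adjusted p = 1.76e-09) and by -0.59 ± 0.11 with BMAL1 depleted (adjusted p = 7.15e-05). HOXD11, which acts with HOXA11 in the kidney and forelimb, measured 15.4, 13.97 and 13.8 CPM in shControl, 11.8, 8.80 and 10.8 in shBMAL1 and 6.97, 9.10 and 7.61 in shARNT. Both depleted groups were below the control and overlapped each other, at -0.46 ± 0.11 for BMAL1 (adjusted p = 0.00171) and -0.87 ± 0.11 for ARNT depletion (adjusted p = 8.54e-07). HOXD9 fell from 4.68 ± 0.821 CPM in shControl to 2.67 ± 0.287 in shARNT and 3.24 ± 0.483 in shBMAL1. HOXD4, a hindbrain gene, rose from 4.03 ± 0.663 to 5.38 ± 0.666 CPM in shARNT (adjusted p = 0.0136) and measured 4.43 ± 0.274 in shBMAL1. HOXD1, HOXD3, HOXD8 and the digit gene HOXD13 were called in neither depletion. Their log2 fold changes ran from -0.56 for HOXD13 in shBMAL1 to 0.14 for HOXD8 in shARNT, and every comparison of these 4 genes with the control had overlapping libraries. With scaling by library size alone, HOXD8 was called higher in shARNT at 0.38 (adjusted p = 0.00577).

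The direct comparison of shARNT with shBMAL1 asks whether the depletions differed from each other. It does not use the control levels, but the control libraries took part in the filter, scaling and spread of the fit. With only the 6 libraries compared, 25 HOX genes were called as well. Of the 35 HOX genes, 25 were called, 15 higher and 10 lower in shARNT, against 81.2% of all genes, 40.1% higher and 41.1% lower. Libraries did not overlap for 23 HOX genes, against 79.6% of all genes. Calls went 1 way in HOXB and HOXC and both ways in HOXA and HOXD. In HOXA all 11 genes were called, 8 of them lower and 3 higher in shARNT than in shBMAL1. Among these, HOXA5, HOXA6 and HOXA7 have divided reads, and their summed block was not called (-0.00282, adjusted p = 0.962). In HOXB 7 of 8 were called and in HOXC 4 of 8, all higher in shARNT. In HOXD 1 was higher, 2 were lower and 5 were not called. The largest differences were -1.92 ± 0.37 for HOXA13 (adjusted p = 8.12e-05), 1.82 ± 0.18 for HOXB5 (adjusted p = 1.73e-08) and 1.75 ± 0.17 for HOXC9 (adjusted p = 6.83e-09). HOXB7 was the HOXB gene not called, with a difference of 0.00144 (SE 0.0746, adjusted p = 0.987) and 14.7, 15.96 and 15.9 CPM in shBMAL1 against 15.8, 15.5 and 15.3 in shARNT. With scaling by library size alone, HOXB7 was called at 0.19 (adjusted p = 0.0256) and HOXD8 at 0.26 (adjusted p = 0.0434). The calls of HOXB8 (0.73 ± 0.29, adjusted p = 0.0288) and HOXD4 (0.28 ± 0.14, adjusted p = 0.0829) were lost when single libraries were left out. The call of HOXA6 (-0.44 ± 0.21, adjusted p = 0.0677) was lost without shBMAL1 replicate 2 (-0.31, adjusted p = 0.247) or shARNT replicate 3 (-0.34, 0.195), in DESeq2 (adjusted p = 0.151) and with scaling by library size alone (adjusted p = 0.293), where that of HOXA7 was lost too (adjusted p = 0.142). For HOXB8 the libraries were shBMAL1 replicates 1 and 2 and shARNT replicate 3, with differences of 0.47, 0.58 and 0.59. For HOXD4 they were replicates 1 and 3 of both groups, with differences of 0.30 and 0.23 without the shBMAL1 libraries and 0.19 and 0.28 without those of shARNT. Of genes not called, HOXC4 (0.67 without shARNT replicate 3), HOXC5 (-0.57 without shBMAL1 replicate 2 and -0.67 without shARNT replicate 3) and HOXD9 (-0.36 without shARNT replicate 2) were called when a library was left out.

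Paralogs in different clusters often differed in direction. In group 9, all 4 genes were called in both depletions. With ARNT depleted HOXA9, HOXB9 and HOXC9 rose by 2.09, 0.93 and 1.36, while HOXD9 had a change of -0.81. With BMAL1 depleted HOXA9 rose by 0.88, while HOXB9, HOXC9 and HOXD9 had changes of -0.42, -0.39 and -0.53. The HOXC9 call in shBMAL1 was near the threshold and was lost in DESeq2 (adjusted p = 0.135). HOXA9 rests in part on divided reads, and its summed block rose by 0.99 in shARNT and 0.37 in shBMAL1. In group 10, HOXA10 and HOXC10 rose in shARNT and HOXD10 fell. In group 11, which acts in kidney development, HOXA11 and HOXD11 fell in shARNT, whereas in shBMAL1 HOXA11 rose and HOXD11 fell. In group 13, HOXA13 fell and HOXC13 rose in shARNT, HOXD13 was not called at -0.49 ± 0.36, and HOXB13 was silent.

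**Figure D4:**
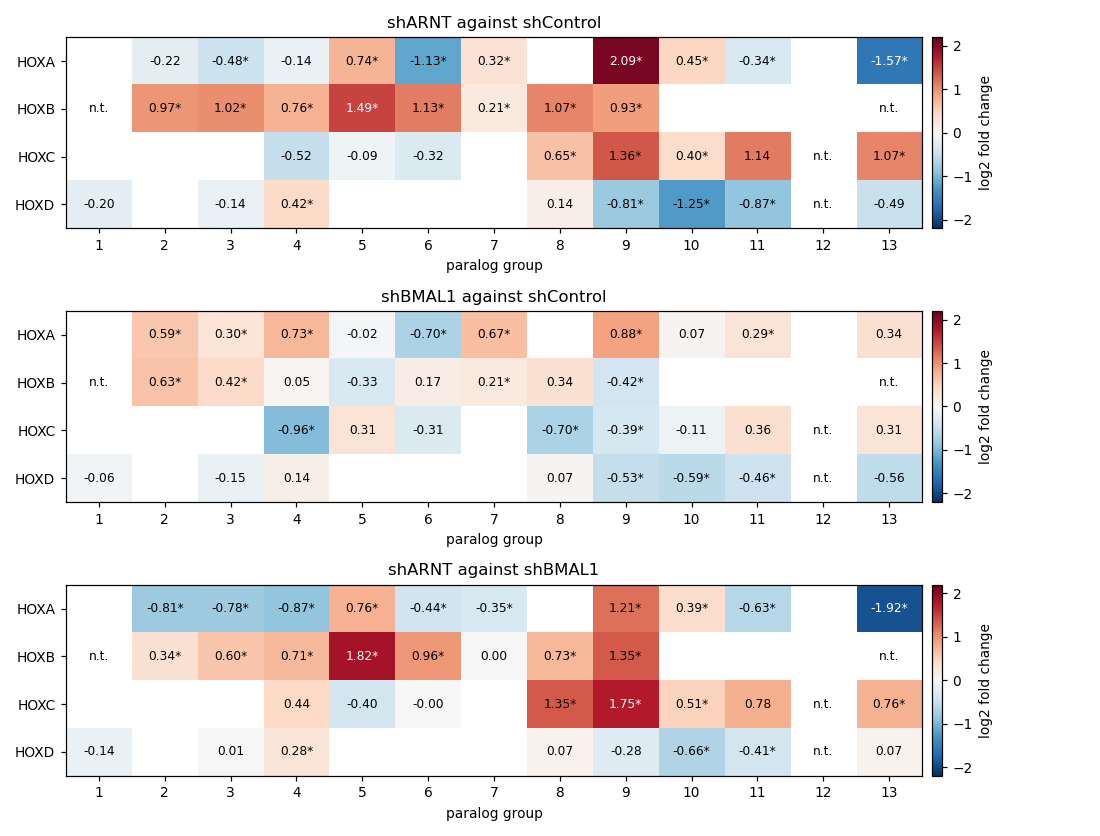
Log2 fold change of HOX genes by cluster (rows) and paralog group (columns) for each depletion against shControl and for the direct comparison, with an asterisk for called genes, n.t. for genes not tested and blank cells where no gene exists or none is reported. In the shARNT panel the HOXB row is positive throughout, and in group 9 HOXA9 stands at 2.09 and HOXD9 at -0.81.

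By position, the low-numbered genes were the ones with no lower call in shBMAL1. Of the 7 expressed genes in groups 1 to 3, 5 were higher and none lower in shBMAL1, with a median of 0.42. Of the 15 in groups 4 to 8, 3 were higher and 3 lower, and of the 13 in groups 9 to 13, 2 were higher and 5 lower with a median of -0.11. In shARNT the same position classes had 3 higher and 1 lower, 9 higher and 1 lower, and 6 higher and 5 lower. Among all genes tested, 31.9% were called higher and 31.5% lower in shBMAL1, and 40.5% and 41.3% in shARNT. No test was made of the counts by position, which rest on few genes. The classes are not independent of cluster, since no expressed gene of groups 1 to 3 is a HOXC gene.

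For 8 of the 39 genes the deposited counts were not whole numbers. HOXA5, HOXA6, HOXA7, HOXA9, HOXA10, HOXB3, HOXC13 and HOXD1 had fractional values in some libraries, and these added up to whole numbers (within 0.002 of a read) in 9 of 9 libraries only together with neighbouring rows, among them antisense genes on the opposite strand. How reads of overlapping genes were divided between rows, and whether strand was used, is not given in the sources used here. When the rows of HOXA5, HOXA6, HOXA7 and the antisense HOXA-AS3 were added up, the sum rose by 0.22 ± 0.051 with ARNT depleted (adjusted p = 0.000648) and 0.22 ± 0.051 with BMAL1 depleted (adjusted p = 0.00102), and the sum was not called between the depletions (-0.00282 ± 0.050, adjusted p = 0.962). HOXA6, which fell in both depletions as a single row, was a small part of that sum, with 85, 108 and 86 counts in shControl against sums of 1421, 1496 and 1439, so the sum does not give the direction of HOXA6 itself. The separate values of HOXA5, HOXA6 and HOXA7 are uncertain. The block of HOXA9, HOXA10, HOXA-AS4 and the readthrough row HOXA10-HOXA9 kept its direction, with rises of 0.99 ± 0.039 in shARNT and 0.37 ± 0.039 in shBMAL1. The readthrough row, named after its values were seen, measured 32.5 ± 2.59 CPM in shControl, 58.6 ± 1.48 in shBMAL1 and 96.01 ± 3.06 in shARNT. HOXB3 with HOXB-AS1 rose by 1.00 ± 0.098 and 0.49 ± 0.10, and HOXC13 with HOXC-AS5 by 1.16 ± 0.18 and 0.40 ± 0.19. HOXD1 with HOXD-AS1 moved by -0.18 ± 0.072 with ARNT depleted (adjusted p = 0.0318), and its change of 0.02 ± 0.072 with BMAL1 depleted was not called. By the annotation (GENCODE lifted to GRCh37), 22 HOX genes overlap another HOX gene on the same strand and 19 a noncoding gene on the other strand, 30 in either way, so the values of single genes in these stretches carry this limit.

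The genes of the TALE cofactors, with which HOX proteins bind DNA, were examined as well. Of 9 such genes 8 were tested, and 4 were higher and 4 lower in shARNT and 3 higher and 3 lower in shBMAL1, with medians of -0.11 and 0.09. Among all genes tested, 81.8% were called in shARNT and 63.3% in shBMAL1, so calls were common. PBX3 measured 24.96, 25.5 and 25.97 CPM in shControl, 17.02, 17.6 and 15.4 in shBMAL1 and 9.80, 9.10 and 8.77 in shARNT, with changes of -0.61 and -1.47. MEIS3 fell in the same way, by changes of -0.68 and -1.46, and PBX4 rose in both, by 1.10 and 1.34. MEIS1 was higher in shBMAL1, at 0.38, and lower in shARNT, at -0.53. In the direct comparison, where 81.2% of all genes were called, 3 were higher and 4 lower in shARNT, with a median of -0.28. PBX2 was higher in shARNT at 0.31 and lower in shBMAL1 at -0.11. PKNOX2 had at most 0.0901 CPM.

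**Figure D5:**
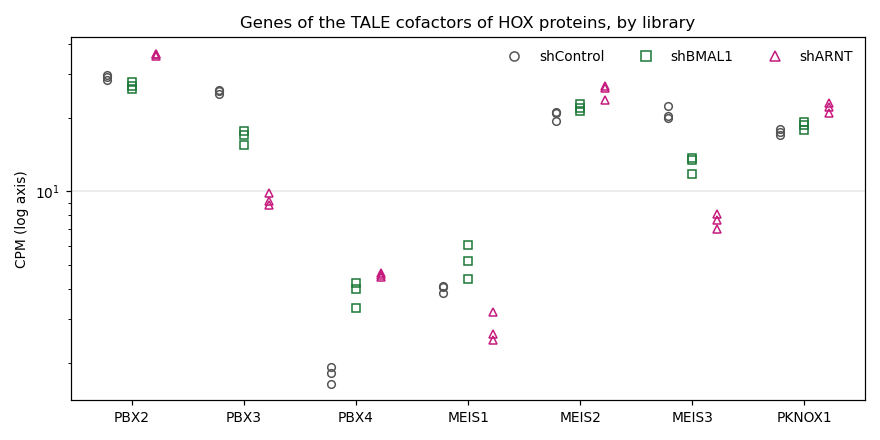
Level of TALE cofactor genes in CPM (log axis) in the 9 libraries, with circles for shControl, squares for shBMAL1 and triangles for shARNT. PBX3 and MEIS3 descend from shControl through shBMAL1 to shARNT, where they average 9.22 and 7.58 CPM.

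Noncoding genes inside the clusters were counted too. Of 21 that the table held, 12 were tested, with 6 higher and 5 lower in shARNT, 5 higher and 1 lower in shBMAL1, and 6 higher and 5 lower in the direct comparison, and medians of 0.41, 0.29 and 0.08. Among all genes tested, 81.8%, 63.3% and 81.2% were called in the same order. Noncoding genes that overlap a HOX gene on the other strand carry the limit described above for overlapping genes. HOTAIRM1, a noncoding gene of HOXA, had 4.75, 4.92 and 5.90 CPM in shControl, 11.8, 10.7 and 10.5 in shBMAL1 and 20.5, 18.8 and 17.5 in shARNT. Its rise was 1.09 in shBMAL1 and 1.87 in shARNT, and no groups overlapped. HOTTIP, which lies at the HOXA13 end, was near the detection limit, at 0.330, 0.304 and 0.212 CPM in shControl and 0, 0.0759 and 0.0252 in shARNT, and was called lower in shARNT (adjusted p = 0.00176). HOXB-AS3, which overlaps HOXB3 to HOXB6, rose by 1.86 in shARNT and was not called in shBMAL1 at 0.32. HOXA-AS2, opposite HOXA3 and HOXA4, was higher in shBMAL1 at 0.64 and lower in shARNT at -0.28. HOTAIR, in HOXC beside HOXC11, was called higher in shARNT at 0.81, though its libraries overlapped the control.

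Genes just outside the clusters did not share one direction. Of 11 flanking genes that the table held, 8 were tested, with 3 higher and 3 lower in shARNT, 5 higher and 2 lower in shBMAL1, and 3 higher and 4 lower in the direct comparison, and medians of 0.01, 0.15 and -0.11. Among all genes tested, 81.8%, 63.3% and 81.2% were called in the same order. TTLL6, on the HOXB13 side of HOXB, went from 21.8 ± 1.67 CPM in shControl to 4.72 ± 0.381 in shARNT, a change of -2.21, while all tested HOXB genes rose there. SKAP2, which flanks HOXA, had changes of 0.52 in shBMAL1 and -0.62 in shARNT. KIAA1715, which flanks HOXD, fell in both, by changes of -0.90 and -0.63, and SMUG1, which flanks HOXC, rose by 0.59 in shARNT.

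Regulators of the clusters were counted from lists. Over all genes tested, 40.5% were called higher and 41.3% lower in shARNT, and 31.9% and 31.5% in shBMAL1. In the direct comparison these shares were 40.1% and 41.1%. Of 25 tested Polycomb genes 19 were higher and 3 lower in shARNT (median 0.44), 11 higher and 6 lower in shBMAL1 (median 0.10) and 14 higher and 5 lower in the direct comparison (median 0.32). MTF2, an accessory subunit of Polycomb complex PRC2, rose most, by 2.21 in shARNT, from 11.6 ± 0.879 to 53.9 ± 2.73 CPM, and EZH1, a catalytic subunit, by 1.39. PHC2 had changes of 0.93 in shBMAL1 and -0.56 in shARNT, PCGF3 had -0.69 and 0.76, and RBBP7 0.61 and 0.40. BMI1 was listed at 0 in all libraries. Of 16 Trithorax and H3K27 demethylase genes 9 were higher and 6 lower in shARNT (median 0.37), 6 higher and 6 lower in shBMAL1 (median 0.06) and 10 higher and 6 lower in the direct comparison (median 0.59). RBBP5 rose by 1.28 and KMT2C by 0.97 in shARNT. KMT2A, the founding methyltransferase of HOX maintenance, was lower in shBMAL1 at -0.75 and higher in shARNT at 0.27. The latter call was near the threshold (adjusted p = 0.0578), and its shARNT libraries overlapped the control.

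In the retinoic acid pathway 13 of 18 genes were tested, with 4 higher and 4 lower in shARNT, 6 higher and 5 lower in shBMAL1, and 5 higher and 7 lower in the direct comparison (medians -0.06, 0.04 and -0.11). Among all genes tested, 81.8%, 63.3% and 81.2% were called in the same order. CRABP2, a carrier of retinoic acid to its receptors, had a change of -2.18 in shARNT, and the receptor gene RARA one of -1.79, from 104 ± 5.28 to 30.1 ± 1.69 CPM. CYP26B1, which degrades retinoic acid, rose by 1.91 in shARNT and 0.69 in shBMAL1. RDH10, an enzyme of its synthesis, rose by 1.13 in shBMAL1. RXRA, the gene of a partner receptor, had a change of -0.73 there. Whether any of these regulators bears on the HOX genes was not tested.

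Markers of the cell line moved with the groups too. The renal list, 11 genes, summed to between 7947 and 8001 CPM in shControl, 5915 and 6402 in shBMAL1 and 2113 and 2268 in shARNT. Most of the sum in shControl was VIM, the gene of the mesenchymal filament vimentin, at 5974 ± 28.6 CPM in shControl, 4309 ± 263 in shBMAL1 and 812 ± 28.6 in shARNT. The renal factor PAX8 went the other way, to 40.7 ± 3.69 CPM in shBMAL1 and 100.3 ± 5.65 in shARNT, with rises of 0.18 and 1.48. Of the 10 tested genes 1 was higher and 8 were lower in shARNT, 2 were higher and 7 lower in shBMAL1, and 2 were higher and 5 lower in the direct comparison (medians -1.01, -0.35 and -0.71). Among all genes tested, 40.5% were higher and 41.3% lower in shARNT, 31.9% and 31.5% in shBMAL1, and 40.1% and 41.1% in the direct comparison. Markers of leukocytes, endothelium and fibroblasts, 8 genes, summed to between 2031 and 2146 CPM in shControl, 1788 and 1902 in shBMAL1 and 186 and 189 in shARNT, mostly from CD68, a lysosomal protein of macrophages and other cells, at 1865 ± 68.2 CPM in shControl and 142 ± 6.48 in shARNT. Of these 3 were tested, CD68, COL1A1 and PDGFRB, with none higher and 3 lower in shARNT, none higher and 2 lower in shBMAL1, and 1 higher and 2 lower in the direct comparison (medians -3.68, -2.32 and -1.36). The endothelial marker CDH5 was at 0 in shControl and shBMAL1, the leukocyte marker PTPRC at 0 in shARNT, and COL3A1 at 0 in both depleted groups. Most tested genes of these lists were lower in the depleted groups, whereas the HOX genes went both ways. The part of these lists in the HOX results was not tested.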

How the data were processed

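RNA was measured in 9 libraries of A498 cells by stranded mRNA sequencing on a BGISEQ-500 instrument. The study's methods name GRCh37, SeqMan NGen and ArrayStar, whereas the submitters' processing notes list hg38, STAR and DESeq2 with no role given, so the build behind the counts is not certain. The authors deposited expected counts, total reads per gene without normalization, in which 0.05 stood for a gene without reads. That value was set to 0, fractions were rounded and 43 repeated names were summed. Genes kept by filterByExpr were tested in edgeR 4.0.16 (R 4.3.3) with the quasi-likelihood F-test, TMM scaling, all 9 libraries and the group as the only factor, and a Benjamini-Hochberg adjusted p under 0.1. The replicates are labelled biological, and how they were separated is not stated in the sources used here. Genes with at most 3 counts in every library were taken as silent, which covers counting error only. Scripts were tested on simulated data. Alternatives were DESeq2 1.42.0, other scalings and filters, a minimum fold change of 1.5, the replicate block, halved counts, single libraries left out and, added after seeing the data, divided reads summed. A few genes of the members and lists count in the totals but are not reported here by name. The other members are named, and each companion list gives its members called in both depletions or with the 3 largest changes. Members and lists were chosen with earlier results of these data known.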

Additional observations from a re-analysis of the deposited data

Results flagged for a closer look

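The effects of the depletions differed for 25 HOX genes by the direct edgeR comparison of shARNT with shBMAL1, which tests the difference itself. Those reported here are the following. Log2 differences below 0, that is, lower levels with ARNT depleted than with BMAL1 depleted, were found in HOXA for HOXA2 (-0.81), HOXA3 (-0.78), HOXA4 (-0.87), HOXA6 (-0.44), HOXA7 (-0.35), HOXA11 (-0.63) and HOXA13 (-1.92), and in HOXD for HOXD10 (-0.66) and HOXD11 (-0.41). Higher levels with ARNT depleted were found for HOXA5 (0.76), HOXA9 (1.21) and HOXA10 (0.39), for HOXB2 (0.34), HOXB3 (0.60), HOXB4 (0.71), HOXB5 (1.82), HOXB6 (0.96), HOXB8 (0.73) and HOXB9 (1.35), for HOXC8 (1.35), HOXC9 (1.75), HOXC10 (0.51) and HOXC13 (0.76), and for HOXD4 (0.28). HOXA3 and HOXA11 were called higher than the control in shBMAL1 and lower in shARNT, and HOXB9, HOXC8 and HOXC9 the other way round, with the HOXC8 and HOXC9 calls in shBMAL1 near the threshold. The differences of HOXA5, HOXA6, HOXA7, HOXA9, HOXA10, HOXB3 and HOXC13 rest in part on divided reads. With the divided rows summed, the difference was -0.00282 for the block of HOXA5 to HOXA7 and 0.62 for that of HOXA9 and HOXA10. It was 0.52 for the HOXB3 block and 0.76 for the HOXC13 block. In this comparison 81.2% of all genes were called, so a difference between the depletions was common in these cells.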

How the results depend on the processing

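With a minimum fold change of 1.5, the called HOX genes numbered 15 for shARNT, 2 for shBMAL1 and 11 between the depletions, and all called genes 6965, 2111 and 6831; that test asks for a larger change by construction. With single libraries left out, the called HOX genes ranged from 23 to 27, from 15 to 19 and from 23 to 26 in the same order, and all called genes from 12437 to 12921, from 9278 to 9905 and from 12333 to 12830. With divided reads summed, the shared value of the HOXA5 to HOXA7 rows was 0.22 in shARNT, against -1.13 for HOXA6 alone. In shBMAL1 it was 0.22, against -0.70 for HOXA6 and -0.02 for HOXA5. In the direct comparison it was -0.00282, against 0.76 for HOXA5. These are values of sums and do not give the direction of the single genes, and no alternative fitted on the single rows turned the direction of a called HOX gene. In DESeq2 24, 16 and 23 HOX genes were called, without HOXC8 in both depletions, HOXC9 in shBMAL1 and HOXA6 and HOXD4 in the direct comparison. Silent genes were 2 with 0 counts asked for, 4 with up to 10 counts allowed, and 3 with halved counts or in shControl alone.

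With the replicate number as a block, 25, 17 and 25 HOX genes were called, and the call lost was that of HOXC8 in shBMAL1. Samples of the same number showed no detectable shared effect. Deviations of the 9 same-numbered pairs had correlations from -0.041 to 0.075, and 4 of 18 comparisons were best with the own number. These values cannot show whether same-numbered samples were handled together. At this depth genes such as HOXC8, HOXC11 and HOXD12, with under 60 counts in every library, could not show small changes.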
